A study of Mus musculus with 8 samples.

Results

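The MHC class I and immunoproteasome genes described here are 10 of the 15047 gene symbols measured in mouse pancreas. They were chosen by symbol for their place in 1 pathway, with earlier results of these data known. They are the heavy chains H2-K1 and H2-D1, their partner B2m, the peptide transporter Tap1 and Tap2, its bridge to the heavy chain Tapbp, the immunoproteasome subunits Psmb8, Psmb9 and Psmb10, and the regulator Nlrc5. All 10 were present in the data, and no filter was applied to them.

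Pancreas RNA of 8 male mice was sequenced. LFD mice (n = 3) and HFD mice (n = 3) were C57BL/6 WT animals fed a low-fat diet or a high-fat diet with 60% of calories from fat. The ob/ob mice (n = 2, strain C57BL/6J; ob/ob) lacked leptin and received normal chow, so that genotype and diet both separate them from the LFD mice. Feeding began in all 3 groups at the age of 4 weeks and lasted 10 weeks. All 8 pancreata carried an orthotopic transplant of mT organoids, which derive from pancreatic tumors of genetically engineered mice, as the study describes and the sample labels do not. Host pancreas, transplanted cells and infiltrating cells were therefore measured together. The study does not state the age of the mice, or the time after transplant, at which this RNA was taken. Values are rlog values, a log2 scale corrected for library size on which a difference of 1 is a 2-fold change, and on which the levels of different genes cannot be compared because transcript length is not accounted for. The read depth of each mouse is unknown, so the error given is the spread between mice.

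Class I molecules show peptides from inside the cell to CD8+ T cells. The proteasome cuts cytosolic proteins, Tap1 and Tap2 carry the peptides into the endoplasmic reticulum, Tapbp holds the transporter next to an empty heavy chain, and the loaded heavy chain travels to the surface with B2m. Under interferon gamma, and constantly in most leukocytes, the catalytic subunits Psmb5, Psmb6 and Psmb7 are replaced in newly built proteasomes by Psmb8, Psmb9 and Psmb10, which changes the peptides that are made. Nlrc5 drives class I genes as Ciita drives class II genes. In the pancreas, acinar cells make up most of the tissue and devote most of their RNA to digestive enzymes.

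On GRCm38 (Gencode M21), 7 of the 10 members lie on chromosome 17, inside the MHC. Psmb9 (chr17:34181987-34187764, minus strand), Tap1 (chr17:34187553-34197225, plus strand), Psmb8 (chr17:34197721-34201454, plus strand) and Tap2 (chr17:34203527-34216321, plus strand) stand next to each other within 34335 bases. H2-K1 (chr17:33996017-34000347, minus strand), H2-D1 (chr17:35262730-35267499, plus strand) and Tapbp (chr17:33915899-33929292, plus strand) are elsewhere in the complex. B2m is on chromosome 2 (chr2:122147686-122153083, plus strand), and Nlrc5 (chr8:94434356-94527272, plus strand) and Psmb10 (chr8:105935735-105938444, minus strand) are on chromosome 8. Psmb10 is thus the immunoproteasome subunit outside the MHC.

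The stretches just upstream of H2-K1, B2m and Psmb10 are shown, the first 2 because they hold the elements for which class I promoters are known and the last because Psmb10 differed from the other members in what follows. They are RefSeq promoter sequences on GRCm38.p6, read 5′ to 3′ on the strand of the gene. Capitals mark, on either strand, a kappa B motif (GGGATTCCC), an interferon regulatory factor core (AANNGAAA), an interferon gamma-activated core (TTCNNNGAA), a cyclic AMP response core (TGACG) and a CCAAT box (CCAAT).
H2-K1 chr17:34000348-34000547 (minus strand): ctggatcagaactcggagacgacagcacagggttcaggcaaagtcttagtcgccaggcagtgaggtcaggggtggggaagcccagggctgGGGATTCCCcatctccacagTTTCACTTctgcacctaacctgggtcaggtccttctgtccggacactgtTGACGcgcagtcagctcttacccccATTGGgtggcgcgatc
B2m chr2:122147486-122147685 (plus strand): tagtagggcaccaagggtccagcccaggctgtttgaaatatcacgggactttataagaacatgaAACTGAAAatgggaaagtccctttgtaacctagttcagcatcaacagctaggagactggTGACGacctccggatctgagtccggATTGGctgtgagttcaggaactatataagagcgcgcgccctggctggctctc
Psmb10 chr8:105938445-105938642 (minus strand): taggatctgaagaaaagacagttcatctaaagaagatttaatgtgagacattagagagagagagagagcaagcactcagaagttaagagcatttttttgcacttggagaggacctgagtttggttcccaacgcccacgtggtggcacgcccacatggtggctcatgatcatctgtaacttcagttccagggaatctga
In the first 2 stretches the interferon regulatory factor core, the cyclic AMP response core and the CCAAT box (written ATTGG on this strand) follow each other in the same order, and none of the 5 motifs is in the Psmb10 stretch. Enhancer A, the kappa B element of the heavy chain genes, is shown for both with the interferon regulatory factor core beside it. The stretches are shown to let their likeness be seen, at 29 of 30 identical bases.
H2-K1 enhancer A chr17:34000429-34000458 (minus strand): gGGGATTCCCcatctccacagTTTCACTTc
H2-D1 enhancer A chr17:35262923-35262952 (plus strand): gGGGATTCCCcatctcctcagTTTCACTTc
Promoter windows around the start were in the RefSeq table for 8 of the 10 members, Tap2 and Nlrc5 being without one. The exact letters GGGATTCCC were in 2 of the 8 (H2-K1, H2-D1) and in 0.353% of 32851 such windows of all genes. They are the letters of enhancer A in these 2 genes, whose stretches are nearly identical, so no enrichment is read from the 2 matches. Other forms of the kappa B motif were not searched, in B2m or elsewhere. The interferon regulatory factor core was in 3 of 8 (H2-K1, H2-D1, B2m) and 23.9% of all. The cyclic AMP response core was in 5 of 8 and 20.8% of all, the CCAAT box in 6 of 8 and 37.4% of all, and the interferon gamma-activated core in 1 of 8 (Psmb8) and 8.30% of all. Tap1 and Psmb9 share part of their windows because they start head to head. These matches describe letters and were not measured as binding.

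Libraries differed in the RNA of cell type markers before any class I gene is considered. The mean rlog of 27 acinar markers was between 16.16 and 17.03 in the 3 LFD mice, HFD 1 and ob/ob 1, and was 14.8 in HFD 2, 12.9 in HFD 3 and 13.2 in ob/ob 2. The mean of 5 leukocyte markers was 7.84 to 8.95 in LFD, 8.95 to 9.79 in HFD and 9.41 to 9.84 in ob/ob mice. The mean of 6 B cell markers was 6.44 in LFD 2 and between 3.71 and 4.40 in the other mice. In bulk tissue, more cells of a type and more RNA per cell cannot be told apart.

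**Figure D1:**
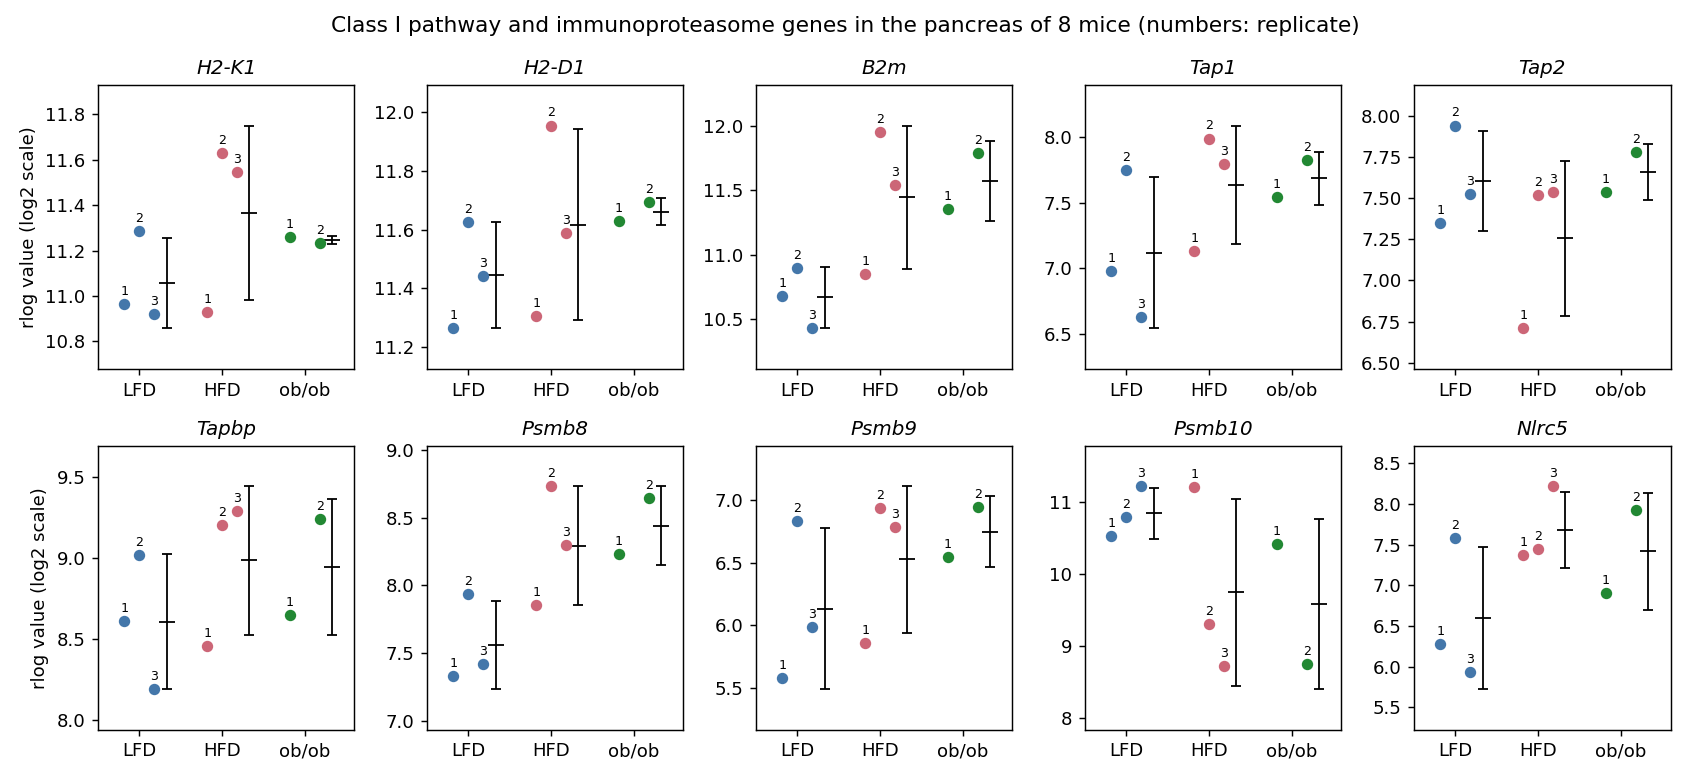
rlog value (log2 scale, y axis) of the 10 members in LFD (n = 3), HFD (n = 3) and ob/ob (n = 2) mice (x axis). Each point is a mouse with its replicate number, and the bars beside the points are the mean and SD. B2m and Psmb8 lie above every LFD mouse in both ob/ob mice, HFD 1 is the lowest HFD mouse in 9 of 10 panels, and Psmb10 is lowest in HFD 2, HFD 3 and ob/ob 2.

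The question asked of the 10 genes was whether class I presentation differs at the RNA level between lean mice and mice with diet-induced or genetic obesity. Of the 10 members, 8 had a higher mean in HFD than in LFD mice, and 9 had a higher mean in ob/ob than in LFD mice. The median difference of the members was 0.38 in HFD and 0.45 in ob/ob mice, beside 0.03 and 0.04 for all 15047 genes. B2m and Psmb8 were about 1.7 times as high in HFD and 1.8 to 1.9 times as high in ob/ob mice, and Psmb10 was 2.13-fold lower in HFD and 2.39-fold lower in ob/ob mice. No member passed the test. With limma and Benjamini-Hochberg adjustment over all genes, 0 genes (0%) had an adjusted p under 0.05 in any of the 4 comparisons, while 2985 had an unadjusted p under 0.05 in HFD against LFD, 2831 in ob/ob against LFD, 588 in ob/ob against HFD and 3825 when the average of both obese groups was set against LFD.

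At that unadjusted level, 3 members were higher in HFD than in LFD mice (B2m, Psmb8, Nlrc5), where 11.5% of all genes were, and 0 were lower, where 8.35% of all genes were. In ob/ob against LFD, 2 members were higher (B2m, Psmb8; 11.6% of all genes) and 0 lower (7.18% of all genes). In the mean of both obese groups against LFD, 2 members were higher (B2m, Psmb8; 14.5% of all genes) and 0 lower (10.9% of all genes). In ob/ob against HFD, 0 members were higher (2.28% of all genes) or lower (1.63% of all genes), and limma differences ran from -0.26 to 0.40 with an adjusted p of 1.00 for each. These unadjusted counts were not stable. By limma the 3 in HFD became 0 without LFD 1, LFD 3, HFD 2 or HFD 3. The 2 in ob/ob became 0 without LFD 1 or LFD 3. Leaving out an ob/ob mouse leaves 1 in that group, so only the size is given. The median ob/ob difference of the members was 0.26 without ob/ob 2 and 0.67 without ob/ob 1. Both became 0 with an acinar or leukocyte term in the fit, and with either term 1 member was lower in HFD. Counts also rose. Without LFD 2, 4 members were higher in HFD and 4 in ob/ob mice, and without HFD 1, 6 were higher and 1 lower in HFD. The comparisons with LFD share the same 3 control mice and are not independent of each other.

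No member had all HFD mice above all LFD mice, where 12.9% of all genes did, and none had all 5 obese mice above all LFD mice, where 9.4% of all genes did. With only 2 ob/ob mice, separation was common. H2-D1, B2m and Psmb8 had both ob/ob mice above all LFD mice, as did 24.1% of all genes, and Psmb10 had both below, as did 21.8% of all genes.

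**Figure D2:**
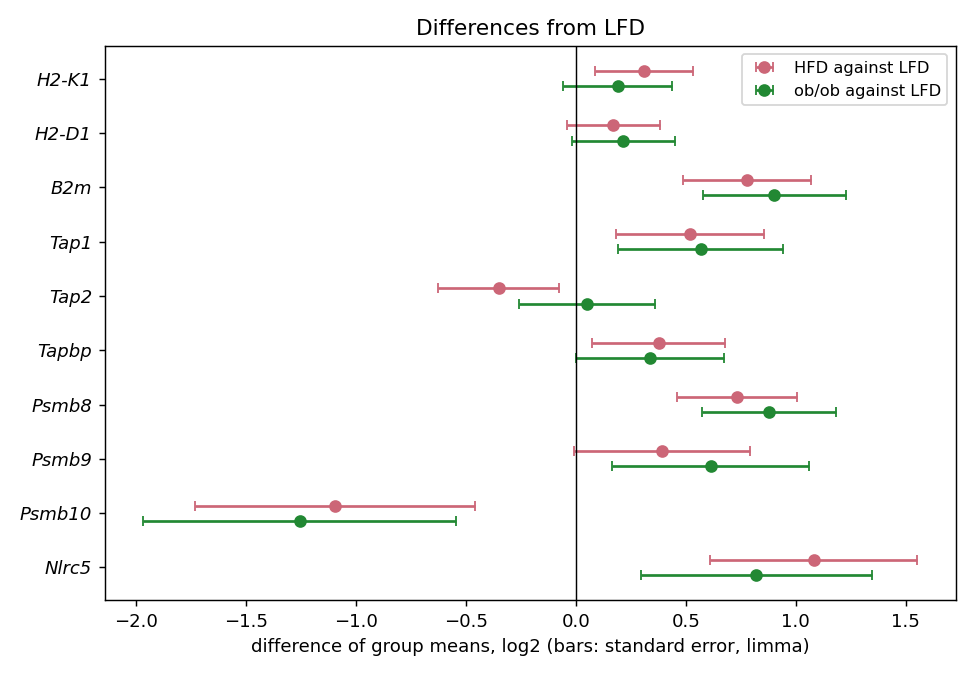
Difference of group means from LFD (log2, x axis) for each member (y axis), HFD in pink and ob/ob in green, with the limma standard error as bars. Most members sit to the right of 0, B2m, Psmb8 and Nlrc5 furthest, and Psmb10 sits to the left at -1.09 and -1.25.

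The heavy chains had small differences as deposited, and these depended on scaling. H2-K1, which binds and displays the peptide, was 10.96, 11.29 and 10.92 in LFD, 10.93, 11.63 and 11.54 in HFD, and 11.26 and 11.24 in ob/ob mice. Its groups overlapped, with LFD 2 above both ob/ob mice, and it was higher by 0.31 in HFD (SE 0.22, limma adjusted p = 0.440) and by 0.19 in ob/ob mice (SE 0.25). H2-D1, the other classical heavy chain of this strain, was 11.27, 11.63 and 11.44 in LFD, 11.31, 11.95 and 11.59 in HFD, and 11.63 and 11.69 in ob/ob mice. The difference was 0.17 in HFD (SE 0.21, limma adjusted p = 0.656) and 0.22 in ob/ob mice (SE 0.23), and LFD 2 lay within 0.01 of ob/ob 1. After quantile normalization H2-K1 was higher by 0.52 in HFD and 0.42 in ob/ob mice, and H2-D1 by 0.40 and 0.49. After median centring the differences were 0.23 and 0.10 for H2-K1 and 0.089 and 0.13 for H2-D1. Without HFD 2, H2-D1 differed by 0.0026 in HFD. The transcripts of the heavy chains are alike: 22.8% of the 31-base words of H2-K1 and 26.9% of those of H2-D1 occur in transcripts of other genes, 11.1% and 13.8% in each other, so the split of reads between them is uncertain.

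B2m is the invariant light chain that every classical heavy chain needs to leave the endoplasmic reticulum. It was 10.68, 10.89 and 10.43 in LFD, 10.85, 11.95 and 11.54 in HFD, and 11.35 and 11.79 in ob/ob mice. Both ob/ob mice and 2 of 3 HFD mice lay above the LFD range, and HFD 1 lay inside it. The group means were 10.67 ± 0.23 (SD, n = 3), 11.45 ± 0.56 (SD, n = 3) and 11.57 ± 0.31 (SD, n = 2). The difference from LFD was 0.78 in HFD (1.72-fold, SE 0.29, limma adjusted p = 0.215) and 0.90 in ob/ob mice (1.87-fold, SE 0.32, limma adjusted p = 0.225). None of the 31-base words of B2m occurs in a transcript of another gene, so its value is not exposed to reads shared between genes.

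Peptide supply gave smaller and more overlapping differences. Tap1, a chain of the transporter, was 6.98, 7.75 and 6.63 in LFD, 7.13, 7.99 and 7.80 in HFD, and 7.54 and 7.83 in ob/ob mice. It was higher by 0.52 in HFD (SE 0.33, limma adjusted p = 0.394) and by 0.57 in ob/ob mice (SE 0.37, limma adjusted p = 0.404), with LFD 2 inside the range of the obese mice. Tap2, the other chain, was 7.35, 7.94 and 7.53 in LFD, 6.71, 7.52 and 7.54 in HFD, and 7.54 and 7.78 in ob/ob mice. Its highest value was in an LFD mouse and its lowest in HFD 1, which gave -0.35 in HFD (SE 0.28, limma adjusted p = 0.483) and 0.05 in ob/ob mice. The sign in ob/ob mice was not fixed, being -0.038 after centring each mouse on its median. Tapbp, which tethers the empty heavy chain to the transporter, was 8.61, 9.02 and 8.19 in LFD, 8.46, 9.20 and 9.29 in HFD, and 8.65 and 9.24 in ob/ob mice. Its differences of 0.38 (SE 0.30, limma adjusted p = 0.488) and 0.34 (SE 0.34, limma adjusted p = 0.579) were near the spread within groups. Tapbp shares 26.9% of its 31-base words with other genes, 22.1% with Gm19412 alone, and Tap2 shares 14.3%.

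The 3 immunoproteasome subunits did not go together. Psmb8, the inducible counterpart of the chymotrypsin-like subunit, was 7.33, 7.94 and 7.42 in LFD, 7.85, 8.73 and 8.30 in HFD, and 8.23 and 8.65 in ob/ob mice. Only LFD 2, at 7.94 against 7.85 in HFD 1, made the lean and obese ranges overlap. It was higher by 0.73 in HFD (1.66-fold, SE 0.27, limma adjusted p = 0.216) and by 0.88 in ob/ob mice (1.84-fold, SE 0.31, limma adjusted p = 0.222). Psmb8 shares 13.7% of its 31-base words with other genes. Psmb9, which replaces the caspase-like subunit, was 5.58, 6.84 and 5.99 in LFD, 5.86, 6.93 and 6.79 in HFD, and 6.55 and 6.95 in ob/ob mice. LFD 2 again stood with the obese mice, and the differences were 0.39 (SE 0.40, limma adjusted p = 0.589) and 0.61 (SE 0.45, limma adjusted p = 0.447).

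Psmb10, which replaces the trypsin-like subunit, took the opposite sign. It was 10.52, 10.78 and 11.21 in LFD, 11.20, 9.31 and 8.72 in HFD, and 10.41 and 8.75 in ob/ob mice. HFD 1 was at the top of the LFD range, ob/ob 1 was just under it, and HFD 2, HFD 3 and ob/ob 2 were lower by over 1. The means were 10.84 ± 0.35 (SD, n = 3), 9.74 ± 1.29 (SD, n = 3) and 9.58 ± 1.18 (SD, n = 2), and the differences -1.09 in HFD (SE 0.64, limma adjusted p = 0.353) and -1.25 in ob/ob mice (SE 0.71, limma adjusted p = 0.344). The 3 low mice are the 3 with low acinar markers. With the acinar mean as a term in the limma fit, the Psmb10 difference was 0.093 in HFD and 0.043 in ob/ob mice.

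Each immunoproteasome subunit was then set against the constitutive subunit it replaces in the same mouse, which removes any scaling of the whole library. Psmb5 was 9.11, 9.52 and 9.61 in LFD, 9.54, 9.30 and 8.80 in HFD, and 9.18 and 8.90 in ob/ob mice, lower by 0.29 in the obese mean (SE 0.21, limma adjusted p = 0.397). Psmb6 and Psmb7 stayed between 9.32 and 10.02 in all 8 mice, with differences of -0.07 and 0.09 in the obese mean. The rlog difference Psmb8 minus Psmb5 was -1.78, -1.58 and -2.19 in LFD, -1.68, -0.56 and -0.50 in HFD, and -0.94 and -0.26 in ob/ob mice. In 4 of 5 obese mice it was above all LFD mice, and HFD 1 was within the LFD range. For the pairs, the mean of the 5 obese mice was used, not the average of the HFD and ob/ob group means as in limma. It exceeded the LFD mean by 1.06, a 2.08-fold shift. The exact two-sided permutation p was 0.0714 (5 against 3 mice, smallest possible p 0.0357), with an adjusted p of 0.161 over the 3 pairs.

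Psmb9 minus Psmb6 was -4.00, -3.03 and -4.03 in LFD, -4.08, -2.89 and -2.53 in HFD, and -3.21 and -2.93 in ob/ob mice. The groups overlapped, the mean of the 5 obese mice was higher by 0.56, and the exact permutation p was 0.250 (adjusted p = 0.250). Psmb10 minus Psmb7 was 1.00, 1.09 and 1.23 in LFD, 1.18, -0.57 and -0.77 in HFD, and 0.58 and -1.10 in ob/ob mice. In 4 of 5 obese mice it was below all LFD mice. The mean of the 5 obese mice was 2.37-fold lower, and the exact permutation p was 0.107 (adjusted p = 0.161). Of the 31-base words of Psmb5, 71.7% occur in transcripts of other genes, 59.8% in Gm3375, so its level is the least certain of the 6 subunits. HFD or ob/ob mice alone were not tested, because an exact permutation test of 3 against 3 or 3 against 2 mice cannot go below 0.1 or 0.2.

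**Figure D3:**
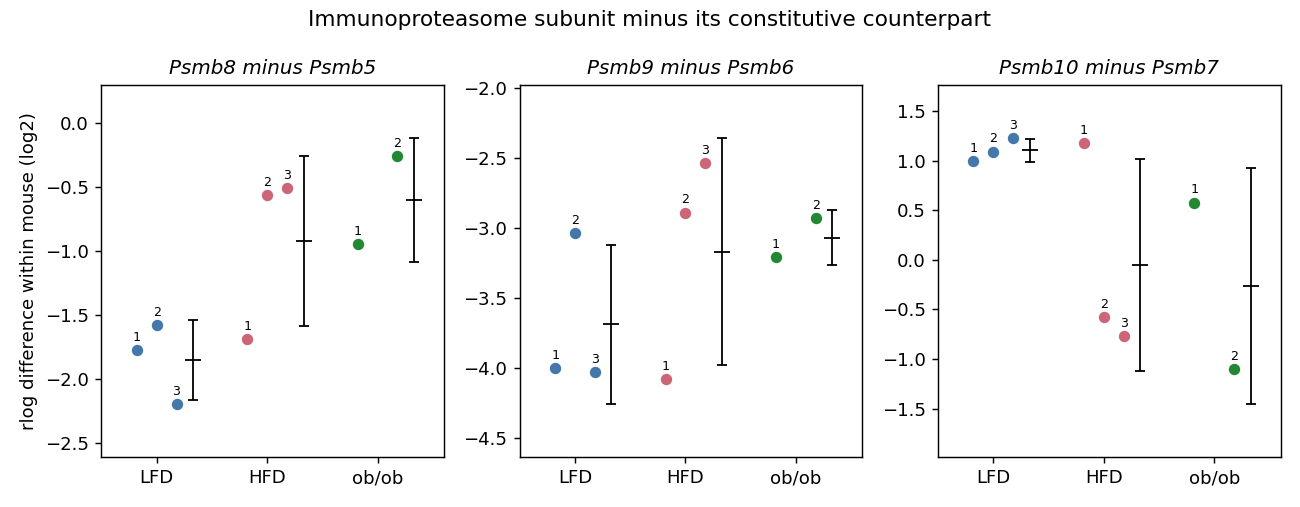
Within-mouse rlog difference (log2, y axis) between each immunoproteasome subunit and its constitutive counterpart in LFD (n = 3), HFD (n = 3) and ob/ob (n = 2) mice; points are mice with their replicate number and bars are mean and SD. Psmb8 minus Psmb5 is above every LFD mouse in 4 of 5 obese mice, and Psmb10 minus Psmb7 is below every LFD mouse in 4 of 5.

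Nlrc5, the transactivator of class I genes, was 6.27, 7.58 and 5.93 in LFD, 7.37, 7.44 and 8.22 in HFD, and 6.90 and 7.93 in ob/ob mice. LFD 2 exceeded HFD 1, HFD 2 and ob/ob 1, so the ranges overlapped. It had the highest positive difference of the 10 members in HFD, 1.08 (2.12-fold, SE 0.47, limma adjusted p = 0.249), and 0.82 in ob/ob mice (1.77-fold, SE 0.52, limma adjusted p = 0.392). Without LFD 2 the differences were 1.57 and 1.31, with limma adjusted p of 0.312 and 0.324.

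These values depended on single mice in both directions. LFD 2 was the highest LFD mouse for 9 of 10 members. It had high B cell markers, and also the highest mean of all mice for T and NK cell markers (4.26). Among LFD mice it had the highest means of leukocyte markers (8.95) and MHC class II genes (8.39). Without LFD 2 the median difference of the members was 0.66 in HFD and 0.71 in ob/ob mice. Other omissions lowered it, to 0.23 in HFD without HFD 2, 0.24 without HFD 3 and 0.26 without LFD 3, and in ob/ob mice to 0.26 without ob/ob 2 and 0.27 without LFD 3. HFD 1, the HFD mouse with acinar markers at the LFD level, was the lowest HFD mouse for 9 of 10 members. Without HFD 1, limma called 2812 genes (18.7%) at adjusted p under 0.05 in HFD against LFD, among them 3 of the 10 members. These were B2m at 1.08 (adjusted p = 0.0222), Psmb8 at 0.95 (adjusted p = 0.0386) and Psmb10 at -1.82 (adjusted p = 0.0312). In the obese mean against LFD without HFD 1, 3326 genes (22.1%) were called, and B2m (0.99, limma adjusted p = 0.0159), Psmb8 (0.92, limma adjusted p = 0.0237) and Psmb10 (-1.54, limma adjusted p = 0.0261) were again among them. Leaving out any other mouse gave no call for B2m, Psmb8 or Psmb10 against LFD.

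Psmb10 lies in a stretch of chromosome 8 beside Ctrl, a chymotrypsin-like protease of acinar cells, which lies on the same strand 1872 bases away (chr8:105932003-105933862). Ctrl was 18.90, 19.21 and 19.20 in LFD, 19.05, 16.96 and 15.05 in HFD, and 18.35 and 15.34 in ob/ob mice. Lcat, a plasma enzyme that esterifies cholesterol, lies 1106 bases to the other side on the same strand (chr8:105939551-105943382). It was 6.73, 7.43 and 7.40 in LFD, 7.21, 5.41 and 4.37 in HFD, and 7.38 and 4.50 in ob/ob mice. Both genes were thus low in the same 3 mice as Psmb10.

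The genes beyond them had other patterns. Pskh1, a kinase, 3956 bases from Psmb10, was 7.97 to 8.01 in LFD, 7.38 to 7.70 in HFD and 7.76 to 7.87 in ob/ob mice. Slc12a4, a potassium chloride cotransporter 5145 bases away, had its highest values in HFD 3 and ob/ob 2, at 8.16 and 8.53, against 6.37 to 6.96 in LFD mice. These 4 neighbours were named for their position and not by the rule for genes, with their values known. No 31-base word of Psmb10 occurs in a transcript of another gene, and Gm16156, annotated on the opposite strand across Psmb10, is not among the genes analysed here. The part of acinar content or of the neighbourhood in the Psmb10 values was not tested beyond the fit with the acinar term.

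**Figure D4:**
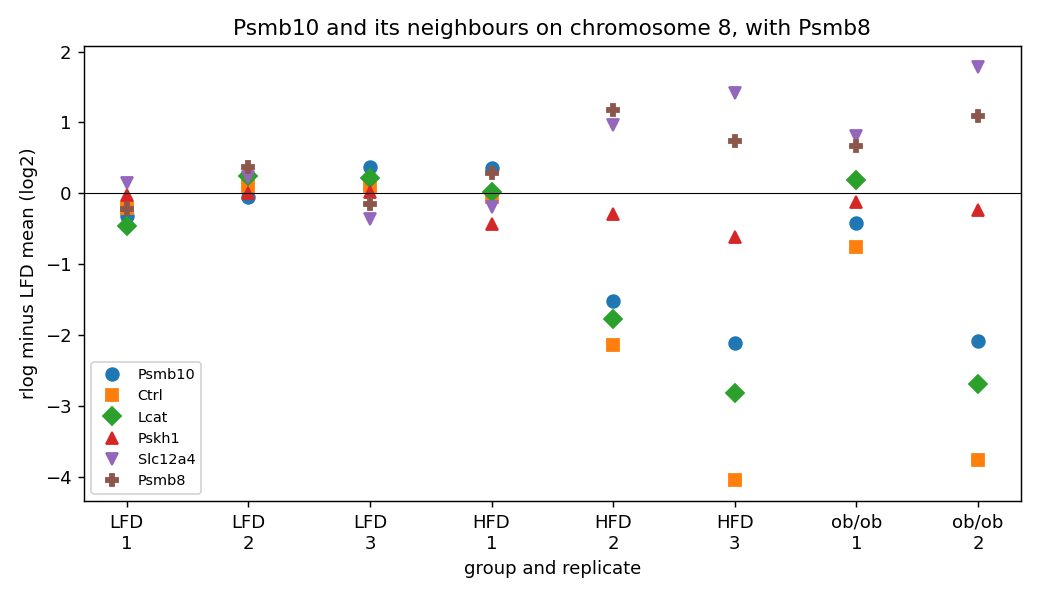
rlog value minus the LFD mean (log2, y axis) of Psmb10, 4 neighbouring genes on chromosome 8 and Psmb8 in each of the 8 mice (x axis). Psmb10, Ctrl and Lcat are all low in HFD 2, HFD 3 and ob/ob 2, where Psmb8 is above the LFD mean.

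The listed proteasome genes outside the 10 members all differed by less than Psmb8, which was higher by 0.80 in the obese mean (SE 0.25, limma adjusted p = 0.122). Of 11 other 20S core subunits, the median difference of the obese mean from LFD was 0.15 and 1 had an unadjusted p under 0.05, where 14.5% of all genes were higher at that level. Psma1 and Psma5, subunits of the outer ring, had the largest differences, 0.49 (SE 0.17, limma adjusted p = 0.141) and 0.42 (SE 0.19, limma adjusted p = 0.209). Of 9 activators and assembly factors, the median was -0.12, and 3 were higher at an unadjusted p under 0.05. Psme1 and Psme2, which form the interferon-inducible cap PA28, were higher by 0.70 (SE 0.25, limma adjusted p = 0.149) and 0.65 (SE 0.25, limma adjusted p = 0.167), and Psmg4, an assembly chaperone, by 0.65 (SE 0.30, limma adjusted p = 0.214).

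Among 9 other loading and trimming genes the median was -0.02. Sec61a1, the pore of the endoplasmic reticulum, was lower by 0.88 in the obese mean, with a limma adjusted p of 0.107. It was 11.24 to 12.02 in obese and 12.37 to 12.55 in LFD mice, and the share of all genes separated in this direction was not computed. Npepps, a cytosolic aminopeptidase, was higher by 0.51 (SE 0.19, limma adjusted p = 0.159). Of 16 non-classical class I genes measured, 3 were higher at an unadjusted p under 0.05 in the obese mean and 0 lower, with a median of 0.36, beside 14.5% and 10.9% of all genes. Hfe, a class I-like protein that regulates iron uptake, was 6.44 to 6.90 in LFD, 7.66 to 8.08 in HFD and 8.24 to 8.37 in ob/ob mice, a difference of 1.46 (SE 0.19, limma adjusted p = 0.0598). Azgp1, a secreted class I-like protein, was 7.73 to 8.17 in LFD mice, and 8.42, 6.14 and 4.59 in HFD and 7.88 and 4.86 in ob/ob mice. Like Psmb10, it was low in the 3 mice with few acinar transcripts.

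Of 20 regulators of class I and of interferon gamma signalling, 4 were higher at an unadjusted p under 0.05 in the obese mean and 0 lower, with a median of 0.19, beside the same 14.5% and 10.9% of all genes. Irf1, an interferon-induced transcription factor, was higher by 0.49 (SE 0.27, limma adjusted p = 0.277). Ciita, the class II transactivator, was higher by 1.22 (SE 0.42, limma adjusted p = 0.138) and Irf8, a factor of myeloid and B cells, by 1.06 (SE 0.39, limma adjusted p = 0.151). MHC class II genes, which present peptides from outside the cell and are mostly made by professional antigen-presenting cells, had higher medians than the class I members, a difference that was not tested. All 9 measured were higher in HFD and in ob/ob mice, with medians of 1.04 and 1.18. In each comparison 6 of the 9 were higher at an unadjusted p under 0.05, beside 11.5% and 11.6% of all genes. The peptide editors H2-DMa and H2-DMb1 were higher by 1.41 (SE 0.28) and 1.39 (SE 0.27) in the obese mean, each with a limma adjusted p of 0.0892. Both had all obese mice above all LFD mice, as did 9.4% of all genes. Cd74, the invariant chain, was higher by 1.07 (SE 0.36, limma adjusted p = 0.135).

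The lists of immune cell markers differed from each other. Of all genes, 14.5% were higher and 10.9% lower at an unadjusted p under 0.05 in the obese mean, the comparison used here unless named. All 5 leukocyte markers had an unadjusted p under 0.05 in the obese mean, with a median difference of 1.14, and Ptprc, the CD45 antigen, was higher by 0.97 (SE 0.32, limma adjusted p = 0.132). Of 12 macrophage and monocyte markers, 10 were higher at that level, with a median of 1.39, led by the chemokine receptor Ccr2 at 1.82 (SE 0.23, limma adjusted p = 0.0598) and Adgre1, a macrophage surface receptor, at 1.57 (SE 0.23, limma adjusted p = 0.081). All 5 neutrophil markers measured were higher at that level (median 1.35). Of 6 dendritic cell markers, 5 had a higher and 1 a lower obese mean, and 1 was higher at that level (median 0.48). Lilrb4a and Pirb, inhibitory receptors of myeloid cells from the list of class I receptors, were higher by 1.67 (SE 0.37, limma adjusted p = 0.099) and 1.41 (SE 0.36, limma adjusted p = 0.107). Of 11 T and NK cell markers, which include those of the CD8+ cells that read class I, 0 had an unadjusted p under 0.05 in either direction (median 0.30). Their mean was 3.20, 4.26 and 2.99 in LFD, 3.39 to 3.92 in HFD, and 3.66 and 4.06 in ob/ob mice. LFD 2 was thus the highest of all 8 mice, while LFD 1 and LFD 3 lay below every obese mouse. Some of these markers are low, such as Prf1 at 1.56 to 2.31, and rlog shrinks differences of genes with few reads. Of 6 B cell markers, 0 had an unadjusted p under 0.05 (median -0.47). Fibroblast markers were higher in 7 of 8 at that level (median 1.05), and of 27 acinar markers 6 were lower and 0 higher (median -2.01). Of 8 ductal markers, 4 were higher and 0 lower in HFD against LFD (median 0.93), where 11.5% and 8.35% of all genes were. In ob/ob against LFD, 1 was higher and 2 lower (median -0.039), where 11.6% and 7.18% of all genes were. The mean of the ductal markers was 8.74 to 8.99 in LFD, 9.09 to 9.69 in HFD, and 9.13 and 8.42 in ob/ob mice. The part of ductal cells in the class I values was not tested.

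With the leukocyte mean as a term in the limma fit, B2m differed from LFD by -0.0070 in HFD and -0.070 in ob/ob mice, Psmb8 by -0.0043 and -0.032, and Nlrc5 by -0.094 and -0.63, each with an adjusted p of 1.00. The median difference of the 10 members was then -0.20 in HFD and -0.52 in ob/ob mice. Leukocyte markers and obesity nearly coincide in these 8 mice, HFD 1 and LFD 2 both being at 8.95, so the 2 cannot be told apart as sources of the class I values. Levels in HFD 2 and ob/ob 2, which had the highest leukocyte means of 9.79 and 9.84, were also the highest of all 8 mice for B2m and Psmb8. With the acinar mean as a term, the median difference of the members was 0.11 in HFD and 0.15 in ob/ob mice, against 0.38 and 0.45 without it. At an unadjusted p under 0.05 in limma, 0 members were higher and 1 lower in HFD, and 0 were higher or lower in ob/ob mice. B2m was then higher by 0.45 in HFD and 0.54 in ob/ob mice and Psmb8 by 0.49 and 0.62.

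**Figure D5:**
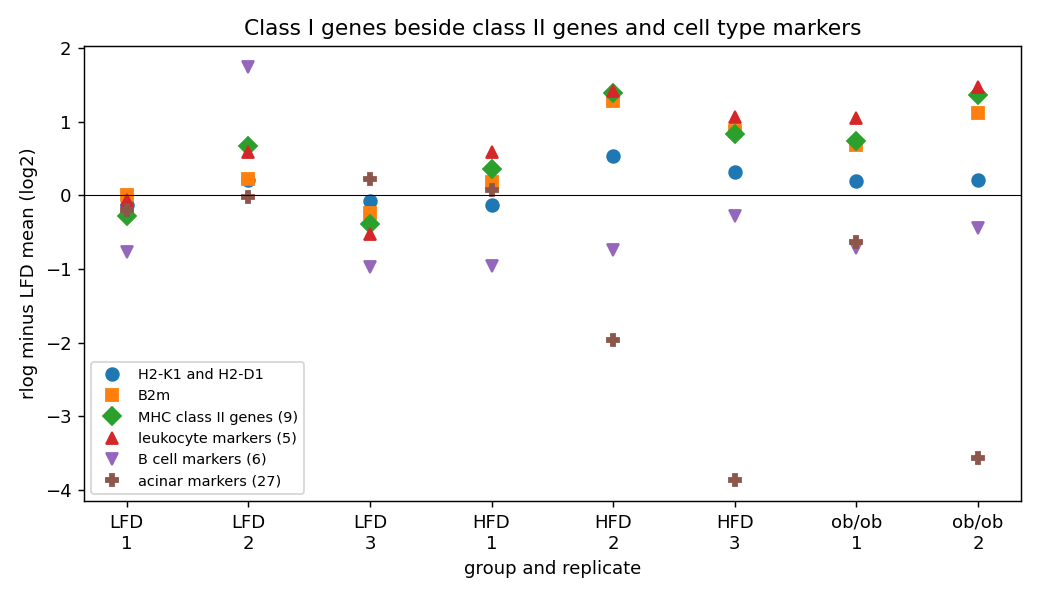
rlog value minus the LFD mean (log2, y axis) of the heavy chains, B2m, 9 MHC class II genes and 3 marker lists (means over 5 leukocyte, 6 B cell and 27 acinar markers) in each of the 8 mice (x axis). B2m, class II genes and leukocyte markers are highest in HFD 2 and ob/ob 2, B cell markers stand out in LFD 2, and acinar markers are low in HFD 2, HFD 3 and ob/ob 2.

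The members were also compared with each other across the 8 mice, as a description that mixes groups, cell content and libraries. The Pearson r of each member with the mean z-score of all 10, itself included, was 0.97 for Tap1 and Psmb9, 0.92 for Psmb8 and H2-K1, 0.91 for Tapbp, 0.90 for H2-D1, 0.89 for B2m, 0.79 for Nlrc5 and 0.57 for Tap2, and it was -0.77 for Psmb10. Among the other genes, those most like this mean included Ifit3b (r = 0.974), Dbndd2 (r = 0.974), Napsa (r = 0.972) and Syt8 (r = 0.971), over the same 8 mice. Napsa was 5.32, 6.70 and 5.34 in LFD, 5.73, 6.87 and 6.34 in HFD, and 6.32 and 6.83 in ob/ob mice. As with most members, LFD 2 was the highest lean mouse and HFD 1 the lowest obese mouse.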

How the data were processed

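Pancreas RNA of 8 male mice (LFD 3, HFD 3, ob/ob 2) was sequenced, and mice were grouped by the sample labels; replicates are different animals. The authors checked paired-end reads with FastQC, quantified Gencode M18 (GRCm38.p6) transcripts with Salmon 0.11.3, summarized them per gene with tximport, and deposited the rlog values of DESeq2 1.22.2 (log2 scale, library size corrected) of 15047 symbols. Their filter, and whether rlog used the groups, are not given in the sources used here. The rlog step shrinks differences of genes with few reads. No counts were used and depth is unknown, so no counting error is given and precision rests on the number of mice. Salmon shares reads between like transcripts by probability.

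Group means of all 8 mice were fitted with limma 3.58.1 in R 4.3.3 (empirical Bayes with a trend on the mean), in 4 two-sided comparisons with p-values adjusted (Benjamini-Hochberg) over 15047 genes and a threshold of 0.05. The limma step was tested on simulated data. For 3 subunit pairs, within-mouse differences of 5 obese mice were set against those of 3 LFD mice by exact two-sided permutation tests (SciPy 1.17.1, Python 3.11.15; 56 arrangements). Coordinates and 31-base words came from Gencode M21 on GRCm38, the annotation of another release on the same assembly, and promoters from RefSeq. Members and gene lists were chosen with earlier results of these data known. Other genes were named by rule, being fixed pathway genes, the largest 2 differences of a list and the 5 genes most like the members; the neighbours of Psmb10 are an exception. Not every such gene is printed, and 1 of them is not reported here. Alternatives were no variance trend, a mean rlog of at least 5, median centring, quantile normalization, only the groups compared, the replicate number as a block, acinar or leukocyte means as a term, and leaving out each mouse.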

Additional observations from a re-analysis of the deposited data

How the results depend on the processing

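Without the variance trend, with a mean rlog of at least 5, and after median centring or quantile normalization, 0 genes had a limma adjusted p under 0.05 in any comparison. Most members kept their direction and size there, but H2-K1 and H2-D1 moved by over 1.5 times with the scaling, as did Psmb9 in HFD against LFD (0.23 after quantile normalization), and the sign turned for Tap2 in ob/ob against LFD (-0.038 after median centring). Psmb6 in the obese mean turned to 0.0097 after quantile normalization. With only the groups compared, 1 gene was called in HFD against LFD and 38 in ob/ob against LFD, and 353 had an unadjusted p under 0.05 in ob/ob against HFD (389 with a mean rlog of at least 5).

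With the acinar term, 1574, 1460, 1175 and 1645 genes had an unadjusted p under 0.05 in the HFD, ob/ob, ob/ob to HFD and obese mean comparisons, and 1 gene was called in each of the last 3. Signs turned for Tapbp (-0.039) and Psmb10 (0.093) in HFD, for H2-K1 (-0.020), Tap2 (-0.29), Tapbp (-0.12) and Psmb10 (0.043) in ob/ob, and for Psmb5 (0.038), Psmb6 (0.12), Psmb10 (0.068) and Azgp1 (0.46) in the obese mean.

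With the leukocyte term, 456, 313 and 368 genes had an unadjusted p under 0.05 in the comparisons with LFD, and the median of the members was -0.20, -0.52 and -0.33. Signs turned in HFD for H2-K1 (-0.18), H2-D1 (-0.22), B2m (-0.0070), Tap1 (-0.51), Tapbp (-0.50), Psmb8 (-0.0043), Psmb9 (-0.64), Psmb10 (0.26) and Nlrc5 (-0.094). They turned in ob/ob for H2-K1 (-0.42), H2-D1 (-0.26), B2m (-0.070), Tap1 (-0.70), Tap2 (-0.73), Tapbp (-0.75), Psmb8 (-0.032), Psmb9 (-0.66), Psmb10 (0.42) and Nlrc5 (-0.63). In the obese mean they turned for B2m (-0.038), Psmb8 (-0.018), Psmb10 (0.34), Nlrc5 (-0.36), Psmb6 (0.044), Psme1 (-0.093), Psme2 (-0.19), Irf1 (-0.34), Irf8 (-0.30), Ciita (-0.35), Cd74 (-0.32), Azgp1 (0.45) and Ptprc (-0.20), which is itself a marker in the term. The cause was not tested.

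Leaving out 1 mouse at a time, genes called ranged from 0 to 2812 in HFD against LFD, 0 to 89 in ob/ob against LFD, 0 to 1 between ob/ob and HFD and 0 to 3326 in the obese mean, the highest of the comparisons with LFD being without HFD 1. Genes with an unadjusted p under 0.05 ranged from 1480 to 5445, 752 to 4075, 369 to 1117 and 2037 to 5824. The median of the members stayed between 0.23 and 0.68, 0.26 and 0.71, -0.14 and 0.25, and 0.24 and 0.71. Tap2 in ob/ob ran from -0.076 (without LFD 1) to 0.22, and in the obese mean Psmb6 from -0.19 to 0.033 and Psmb7 from -0.014 to 0.22. The pairs stayed between 0.89 and 1.28 for Psmb8 minus Psmb5 within mouse, 0.39 and 0.89 for Psmb9 minus Psmb6 within mouse and -1.571 and -1.002 for Psmb10 minus Psmb7 within mouse, in designs too small to reach 0.05.

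With a block for the replicate number, 0 genes were called by limma in any comparison, and 3255, 3243, 467 and 4157 had an unadjusted p under 0.05. Permuting the pairs within replicate numbers (18 arrangements) gave an exact p of 0.0556 for Psmb8 minus Psmb5, the smallest that 18 arrangements can give. It gave 0.278 for Psmb9 minus Psmb6 and 0.111 for Psmb10 minus Psmb7. No pair could thus go under 0.05 in this permutation. Deviations of same-numbered mice correlated between -0.28 and 0.59, and the mice are different animals, so the numbers do not pair them. Depth being unknown, low genes such as Psmb9 carry an unmeasured counting error.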
